A study of Mus musculus with 23 samples.

Results

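Of 18848 genes measured in mouse brain, 4 were followed: Ccn2, Cplx3 and Nxph4, used as layer 6b and subplate markers, and Col24a1, not listed as one. They were chosen by symbol, with values of these libraries already known: under vehicle, Ccn2 was higher and Col24a1 lower in mutant brain, and Cplx3 and Nxph4 were added as genes of layer 6b to see whether the 4 move together. All 4 symbols matched 1 row each and all 4 passed a minimum mean of 10 normalised reads, a level that 17256 genes reached.

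The libraries are polyadenylated brain RNA of C57BL/6J males aged 17 postnatal days, prepared with a stranded kit. One group of mice was wild-type (WT) and the other carried 1 copy of the Grin2b C456Y allele (heterozygous, HT), an amino acid change in GluN2B, which is a subunit of NMDA-type glutamate receptors. They received vehicle or DCS, which the labels give only as an abbreviation. DCS usually stands for D-cycloserine, which binds the glycine site of this receptor as a partial agonist. WT mice gave 6 vehicle and 5 DCS libraries and HT mice gave 6 of each, 23 in all. The labels name brain without a region, and the C456Y allele is carried in every HT group and in no WT group. Nothing states that the libraries are separate mice, so every p-value measures only how far these samples spread, which could be technical.

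The subplate holds the earliest-born neurons of the cerebral cortex, which guide incoming thalamic axons and take part in the first cortical circuits. Many of these cells are lost after birth in rodents, and the survivors form layer 6b, a thin sheet above the white matter. Its neurons are known by a handful of transcripts, among them Ccn2, Cplx3 and Nxph4.

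Ccn2 encodes a secreted matricellular protein, also called connective tissue growth factor, which vascular and meningeal cells make as well as layer 6b neurons. It lies on chromosome 10 from 24595442 to 24598683 on the plus strand (GRCm38, as are the positions below), with 9 distinct annotated exons. Col24a1 encodes the alpha chain of a fibrillar collagen and spans chromosome 3 from 145292472 to 145552011 on the plus strand, with 67 distinct exons. Cplx3 encodes a complexin, a small protein that binds the assembled SNARE complex and tunes vesicle fusion, and lies on chromosome 9 from 57599992 to 57606281 on the minus strand, with 7 distinct exons. Nxph4 encodes a neurexophilin, a secreted glycoprotein of a family that binds alpha-neurexins, and lies on chromosome 10 from 127525473 to 127534559 on the minus strand, with 2 exons. Whether counting used the strand is not stated. Ccn2 overlaps 1 gene on the opposite strand, Gm15270, with a mean of 20.5 normalised reads over the 23 libraries. Col24a1 overlaps 9530034A14Rik on the opposite strand and D530037P16Rik on its own, and reads of these could be counted with it.

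The RefSeq promoter table (GRCm38.p6, 250 bases before to 50 after the start site) held 2 of the 4 genes, Col24a1 and Cplx3. Both windows are shown because values under vehicle differed in HT for Col24a1 and hardly for Cplx3. Each is written 5′ to 3′ on the gene's strand, with a match to the palindromic cyclic AMP response element TGACGTCA in capitals. The window of Col24a1 is chr3:145292222-145292521 on the plus strand and that of Cplx3 is chr9:57606232-57606531 on the minus strand.
Col24a1: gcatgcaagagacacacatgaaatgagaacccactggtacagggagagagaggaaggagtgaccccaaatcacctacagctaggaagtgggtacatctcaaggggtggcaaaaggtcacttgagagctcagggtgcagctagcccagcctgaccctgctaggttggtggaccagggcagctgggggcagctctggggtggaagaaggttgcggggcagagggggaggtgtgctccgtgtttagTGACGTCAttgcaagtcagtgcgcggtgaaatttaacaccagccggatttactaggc
Cplx3: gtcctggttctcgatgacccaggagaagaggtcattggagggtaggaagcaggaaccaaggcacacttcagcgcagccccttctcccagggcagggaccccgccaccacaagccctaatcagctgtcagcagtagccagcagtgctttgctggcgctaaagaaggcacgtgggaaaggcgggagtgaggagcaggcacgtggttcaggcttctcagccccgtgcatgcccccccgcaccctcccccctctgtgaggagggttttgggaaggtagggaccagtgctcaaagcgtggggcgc

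The motifs were searched on both strands with overlaps counted: TGACGTCA, the TEAD motif GGAATG and the AP-1 motif TGANTCA. Col24a1 held 1 match, TGACGTCA starting at base 244 of the window, 7 bases before the start site. Of 32817 promoter windows of the same length, 588 (1.79%) held TGACGTCA, 4811 (14.7%) GGAATG and 2564 (7.81%) TGANTCA. The Cplx3 window held none of the 3. A match describes the letters only.

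Library totals were 32.3 M to 33.5 M normalised reads. The worth of 1 read, read from the spacing of low values, was largest in HT DCS replicate 5 (1.29 normalised reads, against 0.877 to 1.14 in the other libraries), which makes it the shallowest library. Every marker on the lists for deep and upper cortical layers, striatal neurons and the glial and vascular cells was measured and passed the filter, so none of these defining markers was at 0.

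Per kilobase of annotated exon, the means over the 23 libraries were 306.6 normalised reads for Ccn2, 244.5 for Nxph4, 166.4 for Cplx3 and 53.5 for Col24a1. On this per-kilobase scale other families of the same proteins set the members in context. Cplx1 and Cplx2, the complexins of most brain synapses, stood at 9446 and 6112, far above Cplx3. Nxph1 and Nxph3 stood at 275.4 and 495.3 beside Nxph4, and Nxph2 at 25.4. Ccn3 stood at 1496, above Ccn2, while Ccn1 was at 79.7 and Ccn4 at 14.8. Col27a1, the closest relative of Col24a1 among collagens, was at 27.3.

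**Figure D1:**
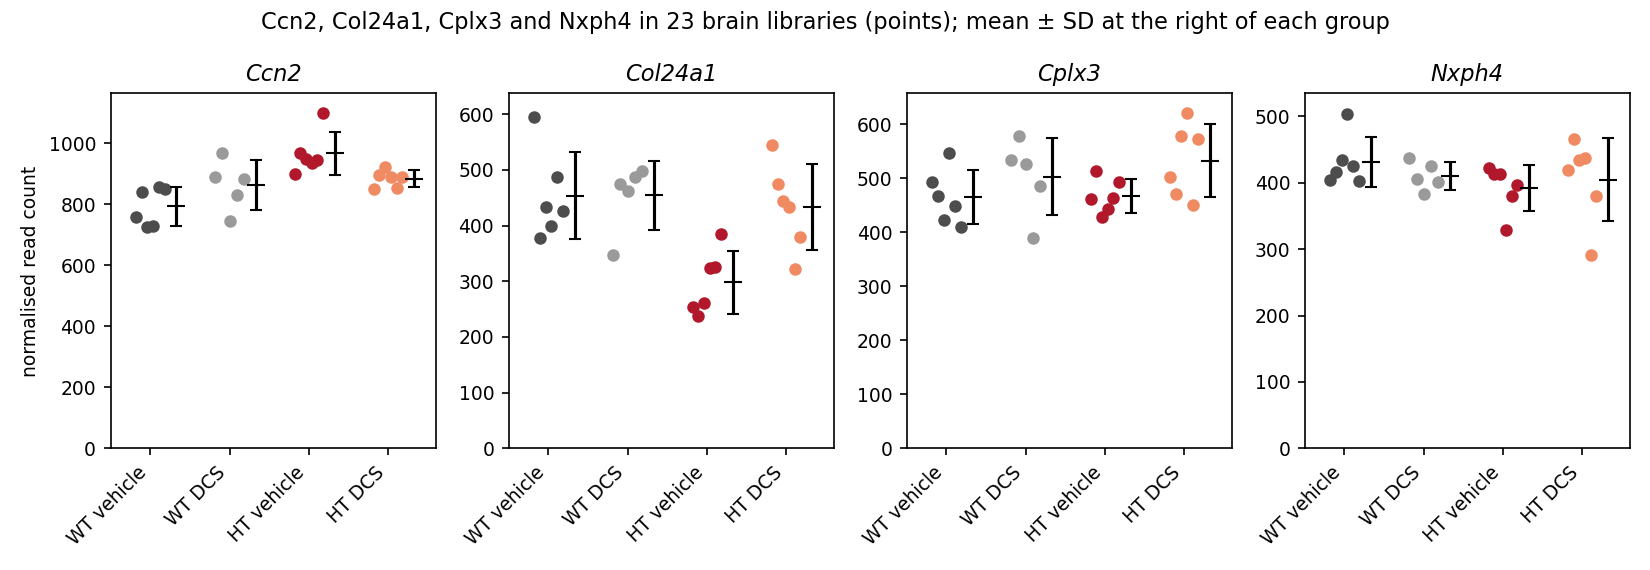
Normalised read counts (y axis, from 0) of Ccn2, Col24a1, Cplx3 and Nxph4 in each of the 23 libraries (points) by group (x axis), with the group mean and SD at the right of each group. Ccn2 in the 6 HT vehicle libraries (900.8 to 1100) lies above all 6 WT vehicle libraries (724.3 to 857.1), and Col24a1 in HT vehicle (238.2 to 385.4) lies mostly below the other groups.

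Ccn2 was the highest in HT vehicle, and this is how it was chosen. In WT vehicle its normalised read counts ran from 724.3 through a median of 798.9 to 857.1 (mean 793.2 ± 62.9 SD, n = 6). In HT vehicle they ran from 900.8 through 947.7 to 1100 (mean 966.9 ± 69.0 SD, n = 6). The lowest HT vehicle library was above the highest WT vehicle library. Under DCS the 5 WT libraries had 888.4, 968.3, 744.7, 830.3 and 881.6 (mean 862.7 ± 82.4 SD, n = 5). The 6 HT DCS libraries ran from 849.0 through 890.7 to 921.9 (mean 883.9 ± 27.6 SD, n = 6). All 6 HT DCS values lay inside the range of the 5 WT DCS values. By mean the order was WT vehicle, WT DCS, HT DCS and HT vehicle, and each neighbouring pair in that order overlapped.

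Col24a1 was the lowest in HT vehicle, again by choice. Its counts in WT vehicle ran from 378.7 through a median of 430.3 to 595.0 (mean 453.6 ± 78.4 SD, n = 6). In HT vehicle they ran from 238.2 through 292.9 to 385.4 (mean 298.4 ± 56.3 SD, n = 6). Of the 6 HT vehicle libraries, 5 lay below every WT vehicle library, and replicate 6, the highest, lay inside the WT range. The 5 WT DCS libraries had 346.6, 475.4, 462.1, 487.9 and 499.0 (mean 454.2 ± 61.7 SD, n = 5). The 6 HT DCS libraries ran from 321.8 through 438.5 to 545.2 (mean 432.9 ± 77.0 SD, n = 6). The means of WT vehicle, WT DCS and HT DCS were closer to one another than the SD of any of these groups, and HT vehicle stood below them.

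Cplx3 did not follow either gene between the genotypes under vehicle. Its counts in WT vehicle ran from 409.9 through a median of 458.1 to 545.9 (mean 464.7 ± 49.8 SD, n = 6), and in HT vehicle from 428.6 through 462.8 to 514.3 (mean 467.3 ± 31.7 SD, n = 6). The whole HT vehicle range sat inside the WT vehicle range. The 5 WT DCS libraries had 534.6, 577.6, 527.0, 388.8 and 486.4 (mean 502.9 ± 71.5 SD, n = 5), and replicate 4 was the lowest of all 23. The 6 HT DCS libraries ran from 450.5 through 537.5 to 620.1 (mean 532.4 ± 67.8 SD, n = 6), with replicate 4 the highest of all 23. By mean the order was WT vehicle, HT vehicle, WT DCS and HT DCS, with neighbours overlapping throughout.

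Nxph4 varied least between group means. Its counts in WT vehicle ran from 403.1 through a median of 420.3 to 503.3 (mean 431.1 ± 37.3 SD, n = 6), and in HT vehicle from 328.6 through 404.6 to 421.5 (mean 392.3 ± 34.5 SD, n = 6). All 6 HT vehicle libraries were below the WT vehicle mean and 3 were below every WT vehicle library. The 5 WT DCS libraries had 437.2, 405.4, 382.9, 425.3 and 401.2 (mean 410.4 ± 21.3 SD, n = 5). The 6 HT DCS libraries ran from 291.8 through 426.7 to 466.1 (mean 404.8 ± 62.0 SD, n = 6). The lowest of these, replicate 5, is the shallowest library, and it was also the lowest HT DCS library for Col24a1 and Cplx3. By mean the order was HT vehicle, HT DCS, WT DCS and WT vehicle, with neighbours overlapping throughout.

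The comparison that chose the genes, HT vehicle against WT vehicle, is given as a description, with no test. On the log2(value + 1) scale Ccn2 differed by 0.29 (SE 0.06), which is 21.9% more normalised reads, and Col24a1 by -0.61 (SE 0.13), which is 34.2% fewer. Cplx3 differed by 0.01 (SE 0.09) and Nxph4 by -0.14 (SE 0.09). So of the 3 genes listed as layer 6b markers, 1 had a higher mean in HT vehicle, 1 hardly differed and 1 had a lower mean. Of the 17256 genes tested, 97.1% had a lower difference than Ccn2, 58% a lower one than Cplx3, 8.87% a lower one than Nxph4 and 0.58% a lower one than Col24a1. With limma and Benjamini-Hochberg adjustment over the 17256 genes, 0 genes (0%) passed an adjusted p of 0.05 in this comparison and 729 (4.22%) had an unadjusted p under 0.05. Every HT vehicle library was above every WT vehicle library in 20 genes (0.116%), Ccn2 among them, and below in 23 (0.133%). In bulk tissue, fewer cells of a type and less RNA per cell cannot be told apart.

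The difference in Col24a1 was not even over the libraries. HT vehicle replicates 1, 2 and 3 had 254.8, 238.2 and 261.8 normalised reads, and replicates 4, 5 and 6 had 324.0, 325.9 and 385.4. The HT DCS libraries were the other way round, with 545.2, 474.1 and 443.6 in replicates 1, 2 and 3 and 433.4, 321.8 and 379.4 in replicates 4, 5 and 6. The labels do not say that the numbers mark a batch or a day. Within numbers 1 to 3 the vehicle genotype difference of Col24a1 was -0.87 on the log2 scale, and within 4 to 6 it was -0.34. Ccn2 gave 0.28 and 0.29 for the same sets, which are parts of the libraries that chose it. Cplx3 gave 0.02 and 0.0031, and Nxph4 gave -0.01 and -0.27.

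**Figure D2:**
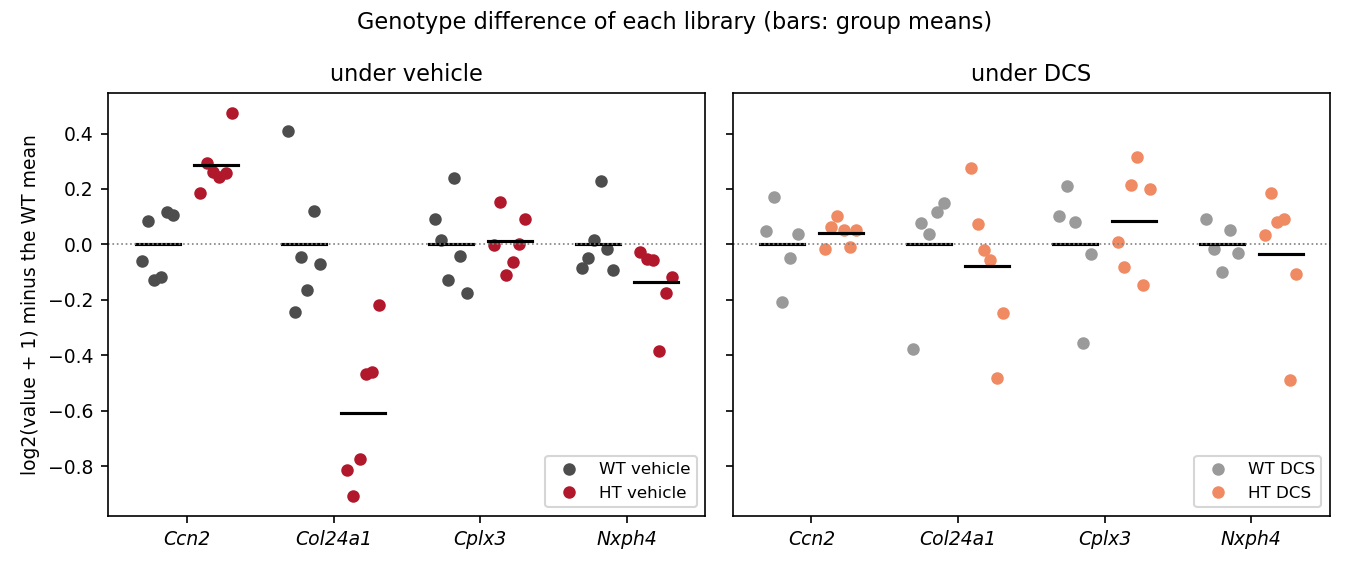
Each library's log2(value + 1) minus the mean of the WT group under the same treatment (y axis), for the 4 genes (x axis), under vehicle at the left and DCS at the right; bars mark group means. Under vehicle Ccn2 is shifted up by 0.29 and Col24a1 down by 0.61, while under DCS the HT means of all 4 genes lie within 0.09 of the WT means.

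The DCS groups share no library with the vehicle groups, so HT DCS against WT DCS was tested for all 4 genes. Only the differences are free of the vehicle libraries. Each SE and p also draws on the spread within the vehicle groups, since all 23 libraries were fitted together. None passed: 0 of 17256 genes (0%) had an adjusted p under 0.05 by limma, and 1302 (7.55%) had an unadjusted p under 0.05, none of the 4 genes among them. Ccn2 differed by 0.04 (SE 0.06, 95% interval -0.09 to 0.16, adjusted p = 0.909, limma), with 4 of 6 HT libraries above the WT mean. Col24a1 differed by -0.08 (SE 0.14, 95% interval -0.36 to 0.21, adjusted p = 0.919, limma), with 4 of 6 HT libraries below the WT mean. Whether these values differ from the vehicle ones was not tested for either gene, since the vehicle values chose them. The value for Col24a1 averages sets of opposite sign: it was 0.20 within replicate numbers 1 to 3 and -0.39 within 4 to 6, where the vehicle difference was -0.34. Ccn2 gave 0.04 in both sets. Cplx3 differed by 0.08 (SE 0.09, interval -0.11 to 0.28, adjusted p = 0.86, limma) and Nxph4 by -0.03 (SE 0.09, interval -0.22 to 0.15, adjusted p = 0.948, limma). These also had opposite signs within numbers 1 to 3 and 4 to 6, at -0.08 and 0.32 for Cplx3 and 0.11 and -0.18 for Nxph4. The direction of each of the 4 turned with the omission of 1 library: Ccn2 to -0.01 without WT DCS replicate 3, Cplx3 to -0.0044 without WT DCS replicate 4, and Col24a1 to 0.0049 and Nxph4 to 0.06 without HT DCS replicate 5.

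DCS was also compared with vehicle within each genotype. These comparisons reuse the vehicle libraries that chose Ccn2 and Col24a1, so for both genes the values carry no test. In WT, DCS libraries differed from vehicle by 0.12 (SE 0.06) for Ccn2 and 0.01 (SE 0.14) for Col24a1 on the log2 scale. In HT, they differed by -0.13 (SE 0.06) for Ccn2 and 0.54 (SE 0.13) for Col24a1. All 6 HT DCS libraries had less Ccn2 than the HT vehicle mean and 5 had less than every HT vehicle library. For Col24a1, all 6 had more than the HT vehicle mean and 4 had more than every HT vehicle library. Within replicate numbers 1 to 3 the HT difference of Col24a1 was 0.95 and within 4 to 6 it was 0.13.

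Cplx3 and Nxph4 were tested in these comparisons, and neither passed. In HT, Cplx3 differed between DCS and vehicle by 0.18 (SE 0.09, adjusted p = 0.973, unadjusted p = 0.0509, limma), with 5 of 6 DCS libraries above the vehicle mean. In WT it differed by 0.11 (SE 0.09, adjusted p = 1, limma), with 4 of 5 above. Nxph4 differed by 0.03 (SE 0.09, adjusted p = 0.989, limma) in HT and -0.07 (SE 0.09, adjusted p = 1, limma) in WT. By limma, 0 genes (0%) passed in either comparison, and 828 (4.80%) in HT and 497 (2.88%) in WT had an unadjusted p under 0.05. The difference between the 2 genotype effects (DCS minus vehicle) was -0.25 for Ccn2 and 0.53 for Col24a1, given without a test. It was 0.07 for Cplx3 (adjusted p = 0.986) and 0.10 for Nxph4 (adjusted p = 0.984, limma), and 0 genes passed, with 756 at an unadjusted p under 0.05.

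Whether the 4 genes move together was then asked of the libraries within their groups. For each gene the log2 value of a library was taken as its deviation from the mean of its own group, so genotype and treatment do not enter. Over the 23 libraries no pair of the 4 genes varied together beyond the permutation test, which shuffled libraries within groups 100000 times, two-sided, with adjustment over the 6 pairs. Cplx3 and Nxph4 had the highest correlation, with Pearson r = 0.32 (permutation p = 0.176, adjusted p = 0.898) and Spearman rho = 0.33 (permutation p = 0.155, adjusted p = 0.931). Ccn2 and Col24a1, the pair chosen under vehicle, had r = 0.13 (permutation p = 0.567, adjusted p = 0.898) and rho = 0.06 (permutation p = 0.786, adjusted p = 0.931). Ccn2 had r = 0.15 with Cplx3 (permutation p = 0.555, rho = 0.13, permutation p = 0.571) and 0.04 with Nxph4 (permutation p = 0.828, rho = 0.02, permutation p = 0.931). Col24a1 had r = -0.03 with Cplx3 (permutation p = 0.898, rho = -0.12, permutation p = 0.593) and 0.10 with Nxph4 (permutation p = 0.693, rho = -0.06, permutation p = 0.809). All 6 adjusted p-values were 0.898 for r and 0.931 for rho.

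Without the 2 libraries farthest from the median of the first gene, r was 0.34 for Cplx3 and Nxph4, -0.05 for Ccn2 and Col24a1, 0.22 for Ccn2 and Cplx3, -0.08 for Ccn2 and Nxph4, -0.15 for Col24a1 and Cplx3 and -0.25 for Col24a1 and Nxph4. For Ccn2 with Col24a1 or Nxph4, and for Col24a1 with Nxph4, the sign turned. Splitting the libraries by replicate number moved r further. Ccn2 and Col24a1 had r = -0.32 in the 12 libraries numbered 1 to 3 and 0.71 in the 11 numbered 4 to 6. In the latter the permutation test gave an unadjusted p of 0.00687 and an adjusted p of 0.0412 (rho = 0.70, adjusted p = 0.0273). Each adjustment covers the 6 pairs of 1 set only, not both sets together, so it does not make up for the split. The relation of Ccn2 and Col24a1 in 4 to 6 rests in part on HT vehicle replicate 6, which was high in both genes. Without it r was 0.59 (permutation, unadjusted p = 0.133). Without it and WT vehicle replicate 4 r was 0.59 (permutation, unadjusted p = 0.0622, adjusted p = 0.0934). Leaving out HT vehicle replicate 4 or 5 gave 0.68 and 0.69 (permutation, unadjusted p = 0.0701 each). Every other single omission gave r between 0.65 (without WT vehicle replicate 5) and 0.83 (without HT DCS replicate 4). Their unadjusted permutation p-values ran from 0.00688 to 0.0209. Cplx3 and Nxph4 had r = -0.35 in numbers 1 to 3 and 0.80 in 4 to 6 (permutation, adjusted p = 0.0756, with rho = 0.84 and adjusted p = 0.0273). Ccn2 and Cplx3 had 0.43 and -0.03, Ccn2 and Nxph4 0.32 and -0.01, Col24a1 and Cplx3 0.07 and 0.44, and Col24a1 and Nxph4 -0.60 and 0.57 in the same order. No pair kept one size in both sets.

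**Figure D3:**
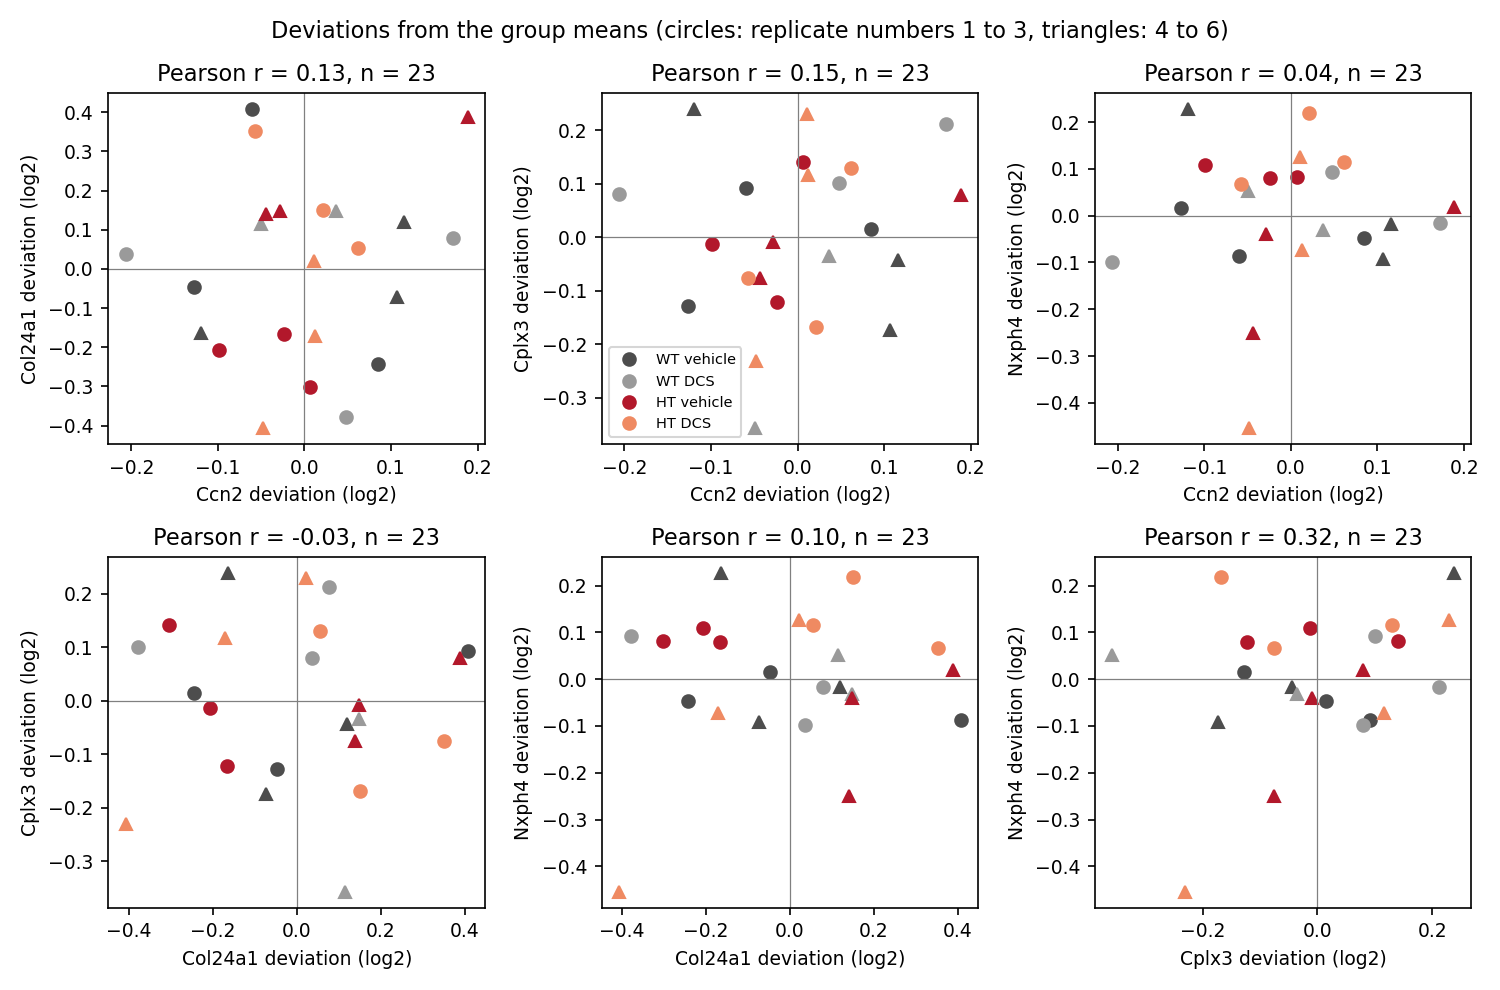
Deviations of log2(value + 1) from the group mean for the 6 pairs of the 4 genes, 1 point per library, coloured by group (key in the upper middle panel), with circles for replicate numbers 1 to 3 and triangles for 4 to 6. The points scatter around 0 in each panel, with Pearson r between -0.03 and 0.32 over the 23 libraries.

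Other layer 6b and subplate genes were read beside the members. The list held 12 genes, all measured: Ccn2, Cplx3 and Nxph4, and 9 others. Col24a1 was not on it. Among the 9 are Nr4a2, a nuclear receptor, Lpar1, a receptor for lysophosphatidic acid, Hcrtr2, a receptor for orexin, and Tmem163, a zinc transporter. Moxd1 is a monooxygenase homologue, Kcnab1 a potassium channel beta subunit, Svil the actin-binding supervillin, Inpp4b a phosphoinositide phosphatase and Pappa2 a protease of insulin-like growth factor binding proteins. Several of the 9 are made elsewhere in brain as well, such as Lpar1 in oligodendrocytes and Nr4a2 in claustrum and midbrain dopamine neurons.

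In HT vehicle against WT vehicle the 9 other genes were split, with 4 higher and 5 lower by mean and a median difference of -0.01 on the log2 scale, beside -5e-04 over all 17256 genes, of which 49.7% were higher and 50.3% lower. They ranged from -0.09 for Kcnab1 to 0.32 for Pappa2. Inpp4b (0.10), Nr4a2 (0.10) and Tmem163 (0.01) were the others with a higher mean, and Lpar1 (-0.01), Svil (-0.02), Moxd1 (-0.03) and Hcrtr2 (-0.05) the others with a lower one. By limma none of the 9 passed. Kcnab1 had an unadjusted limma p of 0.0162 (adjusted p = 0.999) and Pappa2 one of 0.0422 (adjusted p = 0.999), and the other 7 were above 0.05. Pappa2 reached 213.5 normalised reads in HT vehicle replicate 2 and was 105.3 in replicate 5, a span that takes in most of the WT vehicle range of 103.1 to 140.2.

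In HT DCS against WT DCS, 3 of the 9 were higher and 6 lower, with a median of -0.04 beside -3e-04 over all genes, of which 49.8% were higher and 50.2% lower, and 0 passed by limma. Kcnab1 had the smallest p. Its 5 WT DCS libraries had 3217, 3034, 3121, 3007 and 3027 normalised reads, and its 6 HT DCS libraries ran from 2584 through a median of 2929 to 2956. All 6 HT libraries were below every WT library, a pattern that 42 of the 17256 genes (0.243%) showed, while 29 (0.168%) were above throughout. The difference was -0.11 (SE 0.04, adjusted p = 0.607, unadjusted p = 0.00578, limma), so it did not pass. Under vehicle, in other libraries, Kcnab1 ran from 2843 to 3079 in HT and from 2995 to 3316 in WT, and all 6 HT libraries were below the WT mean. The genotype differences under DCS of Nr4a2 (0.05), Inpp4b (0.05), Pappa2 (0.16), Tmem163 (-7e-04), Svil (-0.04), Hcrtr2 (-0.06), Moxd1 (-0.07) and Lpar1 (-0.08) had unadjusted p-values of 0.283 or more in limma.

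Treatment moved the 9 genes little. In WT, 6 were higher and 3 lower under DCS (median 0.03, with 50.3% of all genes higher and 49.7% lower), and in HT 3 were higher and 6 lower (median -0.04, with 49.3% of all genes higher and 50.7% lower). By limma 0 passed in either. Tmem163 was the 1 gene of these with an unadjusted limma p under 0.05. It differed by -0.10 in WT (unadjusted p = 0.024, adjusted p = 1, limma) and by -0.11 in HT (unadjusted p = 0.0124, adjusted p = 0.973, limma). All 5 WT DCS and all 6 HT DCS libraries were below the vehicle mean of their genotype. Its counts ran from 1743 to 2013 in WT vehicle, from 1660 to 1783 in WT DCS, from 1715 to 1968 in HT vehicle and from 1605 to 1780 in HT DCS. The ranges overlapped in both genotypes.

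**Figure D4:**
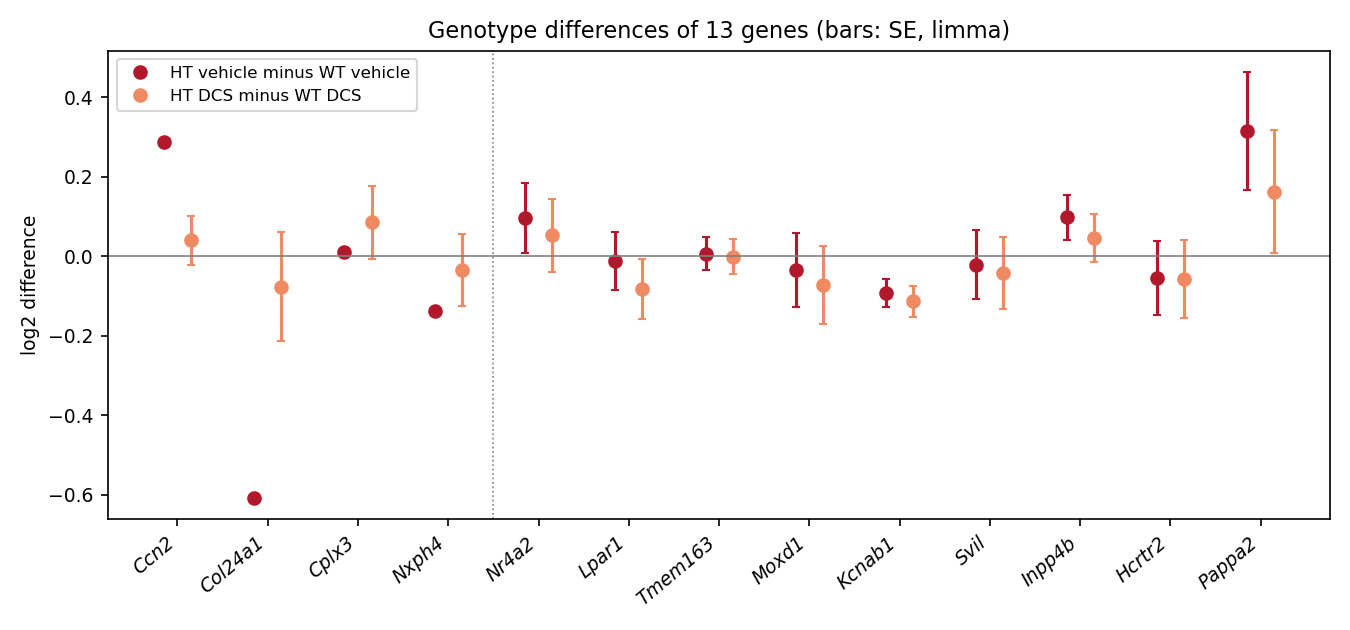
Genotype differences (y axis, log2) for Ccn2, Col24a1, Cplx3 and Nxph4 (left of the dotted line) and 9 genes of the layer 6b and subplate list, under vehicle (dark) and under DCS (light). Col24a1 is not on that list. Bars are SE from limma and are left off the vehicle values of the first 4 genes, which are descriptions. Under vehicle Col24a1 (-0.61) is the lowest and Pappa2 (0.32) and Ccn2 (0.29) are the highest of the 13, and under DCS the 13 values lie between -0.11 (Kcnab1) and 0.16 (Pappa2).

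Within groups, the genes of the layer 6b list varied together weakly. Over its 66 pairs of genes the median r was 0.08 and 43 pairs (65.2%) were positive, and the 9 genes without Ccn2, Cplx3 and Nxph4 gave 0.07. The 4 genes gave a median of 0.12 over 6 pairs, 5 of them positive. All pairs of the 17256 genes gave -7e-04, with 49.9% positive. The same measure was 0.34 for 10 genes of layer 6 corticothalamic neurons, with 40 of 45 pairs positive, 0.12 for layer 5 genes and 0.01 for upper-layer genes. It was 0.48 for striatal projection neurons, 0.89 for oligodendrocytes and 0.92 for microglia, and lowest, at -0.12, for the 6 claustrum genes. These values share the 23 libraries and their depth, are descriptions without a p, and genes are not independent replicates.

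The single layer 6b gene most like Ccn2 was Nr4a2, with r = 0.51, and 1.59% of the genes tested had a higher r with Ccn2. For Cplx3 it was Pappa2 (r = 0.34, with 6.37% of genes higher), for Nxph4 it was Inpp4b (r = 0.42, with 7.97% higher) and for Col24a1 it was Inpp4b (r = 0.29, with 12.9% higher). The lowest r of each member with a gene of the list was -0.31 for Ccn2 with Moxd1, -0.32 for Col24a1 with Lpar1, -0.14 for Cplx3 with Svil and -0.31 for Nxph4 with Lpar1.

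**Figure D5:**
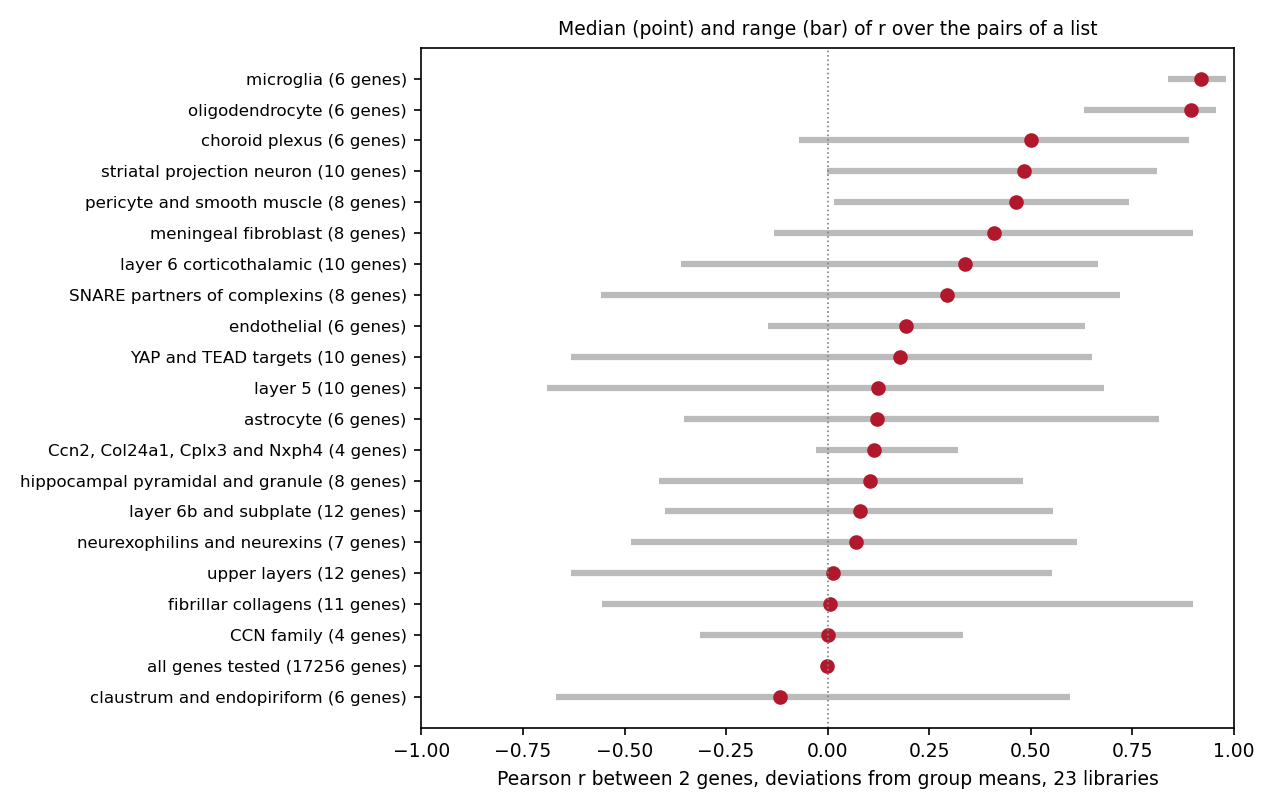
Pearson r between the genes of each list (x axis), from deviations of log2(value + 1) from group means over 23 libraries, as the median (point) and the range (bar) over all pairs in the list (y axis, gene lists); no range is drawn for all genes tested. Ccn2, Col24a1, Cplx3 and Nxph4 (0.12) and the layer 6b list (0.08) lie far below oligodendrocyte (0.89) and microglia (0.92) genes.

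Among the 14085 genes that averaged 50 or more normalised reads, the 5 most like each member, predicted models left out, held no layer 6b gene of the list. For Ccn2 they were Lmna (r = 0.78), which encodes the nuclear lamins A and C, Psma7 (0.78), a proteasome subunit, Cops4 (0.76), a subunit of the COP9 signalosome, Zbtb11os1 (0.75) and Ifitm2 (0.75), an interferon-induced membrane protein. For Col24a1 they were Sar1b (0.76), a GTPase of vesicle export from the endoplasmic reticulum, Bcas2 (0.75), a splicing factor, Mindy4 (0.73), Ddb2 (0.72), a DNA damage sensor, and Arg2 (0.70), the mitochondrial arginase. For Cplx3 they were Thoc5 (0.74), of the mRNA export complex THO, Ppcs (0.68), an enzyme of coenzyme A synthesis, Orai1 (0.68), a calcium channel, Gps1 (0.65), also of the COP9 signalosome, and Glmp (0.65). For Nxph4 they were Rab11b (0.84), a GTPase of recycling endosomes, Car8 (0.83), Atox1 (0.83), a copper chaperone, Atp5e (0.83), a subunit of the mitochondrial ATP synthase, and Rpl13 (0.82), a ribosomal protein. The 4 sets of 5 shared no gene. With only 5 genes taken for each member from so many, that and the absence of layer 6b genes say little about moving together. Each r is over 23 libraries that share depth and scaling, and is a description.

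The partners and relatives of the members follow, by family. Of the CCN genes, Ccn6 was not in the table and Ccn5 was under the filter. All 4 tested had a higher mean in HT vehicle than in WT vehicle, with a median of 0.17 that includes Ccn2, and 0 passed by limma. Ccn1, an immediate-early relative of Ccn2, differed by 0.28 with an SE of 0.29 (adjusted p = 0.999, limma), and Ccn3 and Ccn4 by 0.03 and 0.06. In HT DCS against WT DCS, 2 were higher and 2 lower (median 0.01), with Ccn3 at 0.12 (unadjusted p = 0.0197, adjusted p = 0.64, limma) and Ccn4 at -0.41 (unadjusted p = 0.0156, adjusted p = 0.624, limma), both without passing. Of 10 measured targets of the YAP and TEAD regulators, Ccn1 and Ccn2 among them, 9 had a higher mean in HT vehicle (median 0.07). Of all genes 49.7% did, and the 9 and the median include Ccn2, which this comparison chose. In HT DCS 5 of the 10 were higher (median 0.0015), beside 49.8% of all genes. By limma 0 passed under either treatment.

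Of 11 fibrillar collagens, 8 were higher in HT vehicle than in WT vehicle by mean (median 0.04) and 3 were lower, with Col24a1 the lowest of all at -0.61. Col27a1, its closest relative, differed by -0.01 (SE 0.13, adjusted p = 0.999, limma) under vehicle and by -0.18 (SE 0.14, adjusted p = 0.778, limma) under DCS. Under DCS 2 of the 11 were higher in HT and 9 lower (median -0.03), and Col5a3 (0.20) and Col1a1 (-0.20) marked the ends. In HT, DCS against vehicle gave 5 higher and 6 lower (median -0.02), and Col24a1 at 0.54 was the highest. Col24a1 was chosen by its low HT vehicle values, so its place in both comparisons with HT vehicle is a description. No other collagen passed in any of the 4 comparisons, and Col24a1, tested only in HT DCS against WT DCS, did not pass there.

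Of the complexins, Cplx4 was not in the table. Cplx1 differed between HT and WT by -0.06 under vehicle (adjusted p = 0.999) and -0.09 under DCS (unadjusted p = 0.0116, adjusted p = 0.613, limma), and Cplx2 by -0.05 and -0.06, while Cplx3 was at 0.01 and 0.08. Of 8 SNARE partners, 3 were higher and 5 lower in HT under either treatment. Syt2, a calcium sensor of fast synapses, was at -0.34 under DCS (unadjusted p = 3.9e-05, adjusted p = 0.225, limma), and Vamp1, a vesicle SNARE, at -0.19 (unadjusted p = 0.00199, adjusted p = 0.596, limma). Stx1a, a plasma membrane SNARE, was at 0.07 (unadjusted p = 0.031, adjusted p = 0.642, limma). None passed.

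Of the neurexophilins and neurexins, 6 of 7 were higher in HT vehicle by mean (median 0.03), and Nxph4 was the 1 that was lower. Nxph3, also used as a marker of layer 6 corticothalamic cells, was at 0.12 (unadjusted p = 0.00646, adjusted p = 0.999, limma). Under DCS 5 of 7 were higher (median 0.02), with Nxph3 at 0.07, Nrxn2 at 0.02, Nxph1 at 0.0041, Nxph2 at 0.04 and Nrxn3 at -0.08. None had an unadjusted p under 0.05 there.

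Cell types that border layer 6b or also make the members were read alongside. All 10 layer 6 corticothalamic genes had a higher mean in HT vehicle than in WT vehicle (median 0.06) and 8 of 10 in HT DCS than in WT DCS (median 0.04), beside 49.7% and 49.8% of all genes. Their summed counts ran from 11756 to 12297 in WT vehicle and from 11979 to 12756 in HT vehicle. Layer 5 genes split 5 and 5 (median 0.0043) and upper-layer genes 6 and 6 (median 0.0035) under vehicle. The 6 claustrum genes, which share Nr4a2 with the layer 6b list, gave 5 higher and 1 lower (median 0.03). None of these genes passed by limma.

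Of the cells that also make Ccn2, 7 of 8 markers of pericytes and smooth muscle had a higher mean in HT vehicle (median 0.19, summed counts 6137 to 7893 against 5978 to 7189 in WT vehicle), as were all 8 meningeal (median 0.14, 3564 to 4636 against 3059 to 4294) and all 6 endothelial markers (median 0.06, 5592 to 6250 against 5372 to 5774). The choroid plexus list had 5 of 6 higher (median 0.29, 8119 to 12456 against 7872 to 10298). The summed ranges overlapped between genotypes in each list, and 0 markers passed by limma after adjustment. An unadjusted p under 0.05 was found for 4 of 6 choroid plexus, 3 of 8 pericyte, 1 of 6 endothelial and 0 of 8 meningeal markers, beside 4.22% of all genes. Markers of a list are not independent of one another, and the part of these cells in the Ccn2 difference was not tested. Under DCS, where the Ccn2 difference was 0.04, the medians were 0.04 for pericyte, -0.01 for meningeal, 0.13 for endothelial and -0.11 for choroid plexus markers.

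In HT vehicle all 6 oligodendrocyte markers had a lower mean (median -0.11) and 9 of 10 striatal markers did (median -0.11), and all 6 microglial markers a higher one (median 0.15). Summed counts ran from 373016 to 470849 against 433053 to 496647 in WT vehicle for oligodendrocytes, from 25490 to 28236 against 27223 to 32621 for striatal neurons and from 3091 to 4958 against 2803 to 4885 for microglia, with overlap in each. Under DCS, where Col24a1 differed by -0.08, the medians were -0.24, -0.13 and 0.16. By limma, 6 of 6 oligodendrocyte, 5 of 10 striatal and 0 of 6 microglial markers had an unadjusted p under 0.05 under DCS, beside 7.55% of all genes, and 0, 5 and 0 did under vehicle, beside 4.22%. None passed after adjustment. Within groups the 6 oligodendrocyte markers had a median r of 0.89, so they are not 6 independent results. Their summed counts in HT DCS were 443139, 411449 and 480234 in replicates 1 to 3 and 374343, 373878 and 309517 in 4 to 6. In WT DCS these sums ran from 422560 to 496574. The part of these cell types in the Col24a1 difference was not tested.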

How the data were processed

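RNA from 23 brain libraries in 4 groups was analysed. The authors deposited 1 table of 18848 genes with a normalised signal, read counts scaled between libraries and never negative. Per the submitters' processing notes, DESeq2 1.26.0, R 3.6.2 and Salmon 1.1.0 were used with GRCm38, in no stated role. Annotation, filters and import settings: not given in the sources used here. Of values of a few reads, 55.5% to 76.0% per library lay within 0.15 of a whole multiple of the worth of 1 read, so whole reads could not be recovered and no count test was run. The scaling makes totals alike, so a change in total RNA cannot be seen.

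Values were analysed as log2(value + 1) with limma 3.58.1 in R 4.3.3, 1 coefficient per group over all 23 libraries, with mean trend and robust moderation, two-sided. P-values were adjusted by Benjamini-Hochberg across 17256 genes averaging 10 or more, with a threshold of 0.05. A difference on this scale understates changes of low genes. Pairs were tested with numpy 2.4.6 by 100000 permutations within groups. Both tests were tested on simulated data. Symbols were matched by identifier, with 16 identifiers left without one. Title and description number 1 WT DCS library differently, so both numberings were tried.

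The 4 genes and all gene lists were chosen with earlier results of these data known. Named were the 4 genes, the layer 6b list, the 5 genes most like each member, the measured members of the 3 families, and up to 3 genes of each other list with the smallest p in HT DCS against WT DCS; of the last, only those bearing on a member are printed. A gene that the rule names is not reported here. Beyond this rule, Col1a1, Col5a3 and Col27a1 among collagens were named for their place, after their values were seen. Alternatives changed the pseudocount, the filter, the moderation, the scaling, the groups fitted, the replicate block, the weights and the libraries.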

Additional observations from a re-analysis of the deposited data

Results flagged for a closer look

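Of 52 sets (13 genes in 4 groups), 3 had a library apart from the rest of its group by Dixon's ratio of the gap to the range at the 95% level, which chance gives in about 1 in 20 groups. Ccn2 in HT vehicle replicate 6 was 1100 normalised reads, and the nearest other library was at 969.4 (ratio 0.656). Without it the genotype difference of Ccn2 under vehicle was 0.25, the lowest of the values from leaving out each library, which ran from 0.25 to 0.31. That comparison chose Ccn2, so these values are a description. Col24a1 in WT DCS replicate 1 was 346.6, and the nearest was at 462.1 (ratio 0.758). Nxph4 in WT vehicle replicate 4 was 503.3, and the nearest was at 434.6 (ratio 0.686).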

How the results depend on the processing

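Across pseudocounts of 0.5 and 5, filters of 0 or 50 on the mean, no trend, quantile normalisation, 2 groups only, the replicate block, array weights and the omission of libraries, no member passed limma's threshold in a comparison where it was tested. Calls were 0 genes except 1 (Eif4ebp3) in HT DCS against WT DCS and 1 in WT DCS against WT vehicle with numbers 4 to 6 only, 1 (Syt2) in HT DCS against WT DCS without HT vehicle replicate 6, and 1 (Ehd1) in HT DCS against HT vehicle without HT vehicle replicate 1 or HT DCS replicate 4, which made the count range from 0 to 1. These were named after their values were seen. In HT DCS against WT DCS, Nxph4 was 0.014 with array weights, and with numbers 1 to 3 only Col24a1 was 0.20, Cplx3 -0.084 and Nxph4 0.11, against -0.39, 0.32 and -0.18 with 4 to 6. In HT vehicle against WT vehicle Col24a1 was -0.87 with 1 to 3 and -0.34 with 4 to 6. In HT DCS against HT vehicle it was 0.95 and 0.13, and Nxph4 was -0.0097 with 4 to 6. Cplx3 in WT DCS against WT vehicle was -0.10 with 4 to 6. The cause was not tested.

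Leaving out each library gave ranges for HT DCS against WT DCS of -0.012 to 0.083 for Ccn2, -0.17 to 0.0049 for Col24a1, -0.0044 to 0.14 for Cplx3 and -0.078 to 0.057 for Nxph4. For HT vehicle against WT vehicle they were 0.25 to 0.31, -0.68 to -0.53, -0.02 to 0.06 and -0.16 to -0.09 in that order. For HT DCS against HT vehicle they were -0.15 to -0.09, 0.47 to 0.62, 0.13 to 0.23 and -0.016 to 0.13, with Nxph4 below 0 without HT vehicle replicate 4 or HT DCS replicate 2. For WT DCS against WT vehicle they were 0.08 to 0.17, -0.04 to 0.10, 0.05 to 0.20 and -0.09 to -0.02. The vehicle libraries chose Ccn2 and Col24a1, so for both genes the ranges of comparisons with a vehicle group are descriptions. The median of the 9 layer 6b genes ranged from -0.05 to 0.0059 in HT DCS against WT DCS, -0.02 to 0.03 in HT vehicle against WT vehicle, -0.05 to -0.0014 in HT DCS against HT vehicle and -0.0035 to 0.04 in WT DCS against WT vehicle.

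For pairs, r of Ccn2 and Col24a1 was -0.046 without the 2 farthest libraries, -0.32 with 1 to 3, 0.71 with 4 to 6, 0.59 with 4 to 6 without the 2 farthest (chosen after seeing the data) and -0.062 to 0.21 leaving out each library. Ccn2 and Cplx3 gave -0.028 with 4 to 6 and 0.011 to 0.29. Ccn2 and Nxph4 gave -0.0175 with quantile normalisation, -0.078 without the 2 farthest, -0.0092 with 4 to 6 and -0.066 to 0.16. Col24a1 and Cplx3 gave 0.069 with 1 to 3, 0.44 with 4 to 6 and -0.205 to 0.044. Col24a1 and Nxph4 gave -0.25 without the 2 farthest, -0.60 with 1 to 3 and -0.32 to 0.17. Cplx3 and Nxph4 gave -0.35 with 1 to 3 and 0.11 to 0.45.

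The labels do not say whether libraries with 1 title number share more than that number. Over 33 same-numbered pairs r ran from -0.07 to 0.30 (median 0.01, against -0.0025 for other pairs). Of the 23 libraries, 7 correlated best with a library of their own title number and 8 with one of their own description number. The number expected by chance was not worked out. Pairs both in numbers 1 to 3 or both in 4 to 6 had a median r of 0.0245, against -0.0356 across. Whether the numbers mark batches was not tested. With the replicate block by title number 0 genes were called in each comparison, and no call changed. HT DCS against WT DCS was then 0.02 for Ccn2, -0.09 for Col24a1, 0.08 for Cplx3 and -0.02 for Nxph4.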
